A study of Mus musculus with 6 samples.

Results

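Ifit1, Ifit2 and Ifit3, with Rsad2 (viperin) and Cmpk2, are interferon-induced antiviral genes, and they were followed here in dendritic cells (DCs) from mice given antibiotics and from untreated mice. They were taken by gene symbol from the annotation of the array, which gave 8 probes for these 5 genes. Of 25697 probes in all, 23978 carried a gene symbol, for 16593 named genes. A probe counted as measured when its detection p was under 0.05 on 3 or more of 6 arrays. That held for 5 of the 8 probes and for 4 of the 5 genes, each of them detected on all 6 arrays, and it failed for Ifit1. The genes were selected on their fold changes between antibiotics and untreated arrays in an earlier look at these same data, so their differences between the groups are a description and support nothing further.

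DCs take up antigen and present it to T cells. They were sorted by flow cytometry from peripheral lymph nodes, their total RNA was labelled with biotin, and it was hybridised to an Illumina mouse bead array. The antibiotics group (3 arrays) came from mice gavaged orally with broad-spectrum antibiotics for 10 days. The untreated group (3 arrays) carries the label no treatment, yet its protocol text is the same as that of the antibiotics group and describes the antibiotic gavage. The treatment label was followed here. A gavage with vehicle is not mentioned, so that gavage and antibiotics cannot be told apart if those mice had none. Strain, age, the antibiotics used, the sorting gate and the number of mice behind each array were not stated in the labels. Itgax and Zbtb46, which mark DCs, were detected on all 6 arrays, whereas Flt3, which encodes a receptor for DC growth, was detected on 0.

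Cells that sense viral nucleic acid or bacterial products release type I interferon. Signals from its receptor lead to the binding of a transcription factor complex to the interferon-stimulated response element (ISRE) in the promoters of responding genes. The Ifit genes and Rsad2 are among the most strongly induced of these. Ifit proteins are built of tetratricopeptide repeats, and several bind viral RNA that lacks the host's cap methylation. Viperin is a radical SAM enzyme that, as shown for the human protein, turns CTP into a chain-terminating nucleotide. Cmpk2 is a mitochondrial nucleoside monophosphate kinase, and its gene lies beside Rsad2 on chromosome 12. The Ifit genes lie in a cluster on chromosome 19.

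The promoters were read for the interferon motif, which some of these genes hold and others do not. In RefSeq promoter windows (build GRCm38.p6, 250 bases before to 50 after an annotated transcript start), all 5 genes had a window, and Ifit2 had 2 for 2 starts. The core of the ISRE was searched on both strands as GAAA, any 2 bases, and GAAA again, which reads TTTC, 2 bases, TTTC on the opposite strand. It matched in 3 of the 5 genes: at 2 places in Ifit1, at 2 in Ifit3 and at 1 in Rsad2. Of all 32851 windows, 3.44% held at least 1 match and 0.225% held 2 or more. The stretches that carry the matches are shown because the pair in Ifit3 can be set against that in Ifit1 and in the neighbouring copy Ifit3b. Each reads 5′ to 3′ on the strand of its gene, with the matches in capitals.
Ifit1, chr19:34640765-34640833, plus strand: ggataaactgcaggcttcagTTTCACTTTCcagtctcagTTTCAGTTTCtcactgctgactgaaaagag
Ifit3, chr19:34583353-34583436, plus strand: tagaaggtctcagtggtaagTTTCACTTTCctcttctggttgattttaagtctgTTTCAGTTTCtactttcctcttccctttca
Ifit3b, chr19:34607749-34607832, plus strand: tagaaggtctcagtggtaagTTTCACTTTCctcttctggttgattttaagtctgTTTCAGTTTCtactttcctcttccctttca
Rsad2, chr12:26456543-26456592, minus strand: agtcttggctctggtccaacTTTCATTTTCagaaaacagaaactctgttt

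Ifit1 and Ifit3 carried the same pair of matched letters, TTTCACTTTC followed by TTTCAGTTTC. The pair began 104 and 85 bases before the start in Ifit1 and 156 and 122 bases before it in Ifit3, and the Rsad2 match began 120 bases before its start. The Ifit3 and Ifit3b windows shared an identical run of 169 bases, so that the stretches printed for these neighbours are the same. The Cmpk2 window and both Ifit2 windows held 0 matches, which says only that these letters are not in those windows. The GAS motif of interferon gamma signalling, searched as TTCNNNGAA (the same letters on both strands), matched once in the members, in a window of Ifit2, and in 8.3% of all windows. A match describes letters and was not tested as a binding site.

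**Figure D1:**
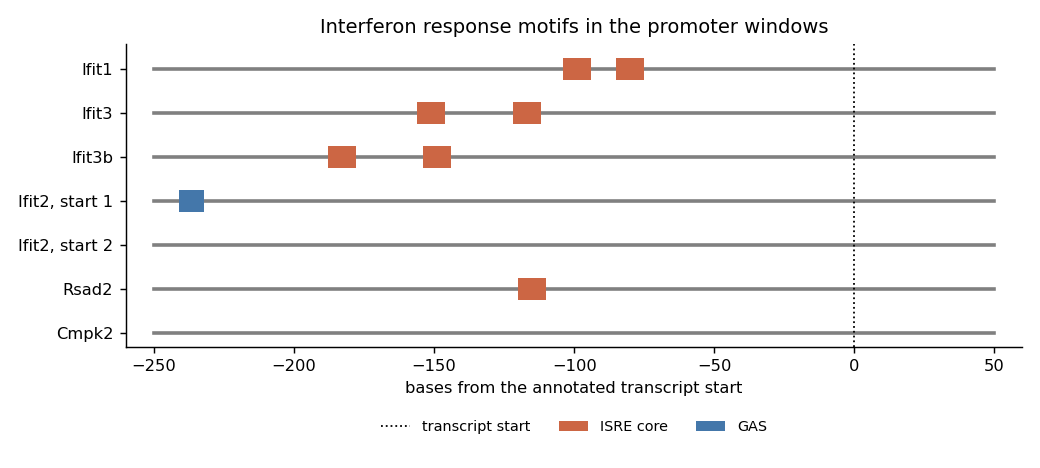
Positions of ISRE core matches (orange) and GAS matches (blue) in the RefSeq promoter windows of the 5 genes and of Ifit3b, with the distance in bases from the annotated transcript start on the horizontal axis. Ifit1, Ifit3 and Ifit3b each hold 2 ISRE core matches, Rsad2 holds 1, and Cmpk2 and Ifit2 hold 0.

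Ifit3, whose protein in human cells binds and stabilises IFIT1, had the clearest difference of the members. The deposited probe intensity, before background correction, was 682, 732 and 554 on untreated replicates 1, 2 and 3. After antibiotics it was 319, 273 and 336. Every untreated array thus read well above every antibiotics array. After background correction and quantile normalization the log2 level was 9.15 ± 0.17 (SD, n = 3) without antibiotics and 7.94 ± 0.27 (SD, n = 3) with them. The log2 fold change, antibiotics minus untreated, was -1.21 (SE 0.18), a level 2.31 times as high in the untreated group. The gap between the nearest arrays of the groups was 0.83 on the log2 scale, more than either SD. This signal came from 1 of 3 Ifit3 probes, ILMN_2944666. Since Ifit3b is a near copy and had no probe of its own name, and the probe sequence is not in the sources used here, RNA of Ifit3b could add to it.

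Rsad2, the viperin gene, read 534, 645.5 and 331 on untreated replicates 1, 2 and 3. After antibiotics its probe read 183, 289.9 and 321. The groups did not overlap, but the lowest untreated array stood next to the highest antibiotics array. In normalized log2 levels the untreated mean was 8.66 ± 0.43 (SD, n = 3) and the antibiotics mean 7.56 ± 0.45 (SD, n = 3). The log2 fold change was -1.10 (SE 0.28), and the nearest arrays of the groups were 0.30 apart, less than the SD within either group. The spread of Rsad2 within a group was the widest of the measured members in both groups.

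Cmpk2, the neighbour of Rsad2, was dimmer. Its probe read 147, 179 and 139.9 on untreated replicates 1, 2 and 3, and 113, 127 and 138 after antibiotics. The ranges came close without crossing. The normalized log2 level was 6.38 ± 0.11 (SD, n = 3) without antibiotics and 5.76 ± 0.26 (SD, n = 3) with them, a log2 fold change of -0.62 (SE 0.17). This size depended on the treatment of background, and was -0.41 with an offset of 50 and -0.30 with no background correction, since a dim probe carries more background in its reading. It was -0.67 with median scaling and -0.83 with the authors' normalized intensity.

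Ifit2, whose product limits viral spread in the mouse nervous system, had 2 measured probes that differed in size. The brighter, ILMN_2981169, read 155, 179 and 134 on untreated replicates 1, 2 and 3, and 135, 126 and 140.4 after antibiotics. Here the groups overlapped, because untreated replicate 3 lay among the antibiotics arrays. The overlap was also present after quantile normalization. With median scaling the groups did not overlap, and their nearest arrays were 0.043 apart on the log2 scale. The log2 fold change of this probe was -0.37 (SE 0.17), with normalized levels of 6.38 ± 0.21 without antibiotics and 6.01 ± 0.18 with them (SD, n = 3). The second probe, ILMN_2981167, read 139.6, 198 and 125 without antibiotics and 116, 117 and 119 with them. On this probe the antibiotics arrays were nearly equal, at a normalized 5.55 ± 0.029 (SD, n = 3), and all lay below the untreated ones at 6.30 ± 0.40 (SD, n = 3). Its log2 fold change was -0.75 (SE 0.20). With the mean of both probes Ifit2 came to -0.56, and with no background correction the brighter probe gave -0.19.

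Ifit1, the family member that in mice recognises viral RNA without cap methylation, gave no signal above background. Its only probe, ILMN_2774340, read between 76.2 and 84 with detection p between 0.372 and 0.995, and was detected on 0 of 6 arrays. The same was true of the other Ifit3 probes. ILMN_1230458 read between 78.8 and 83 and ILMN_1246194 between 79.1 and 84.3, each detected on 0 arrays. The authors' table gives ILMN_1246194 a different accession from the Ifit3 transcript to which the annotation assigns it. No fold is given for these probes, and a probe at background does not show that its transcript was absent.

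**Figure D2:**
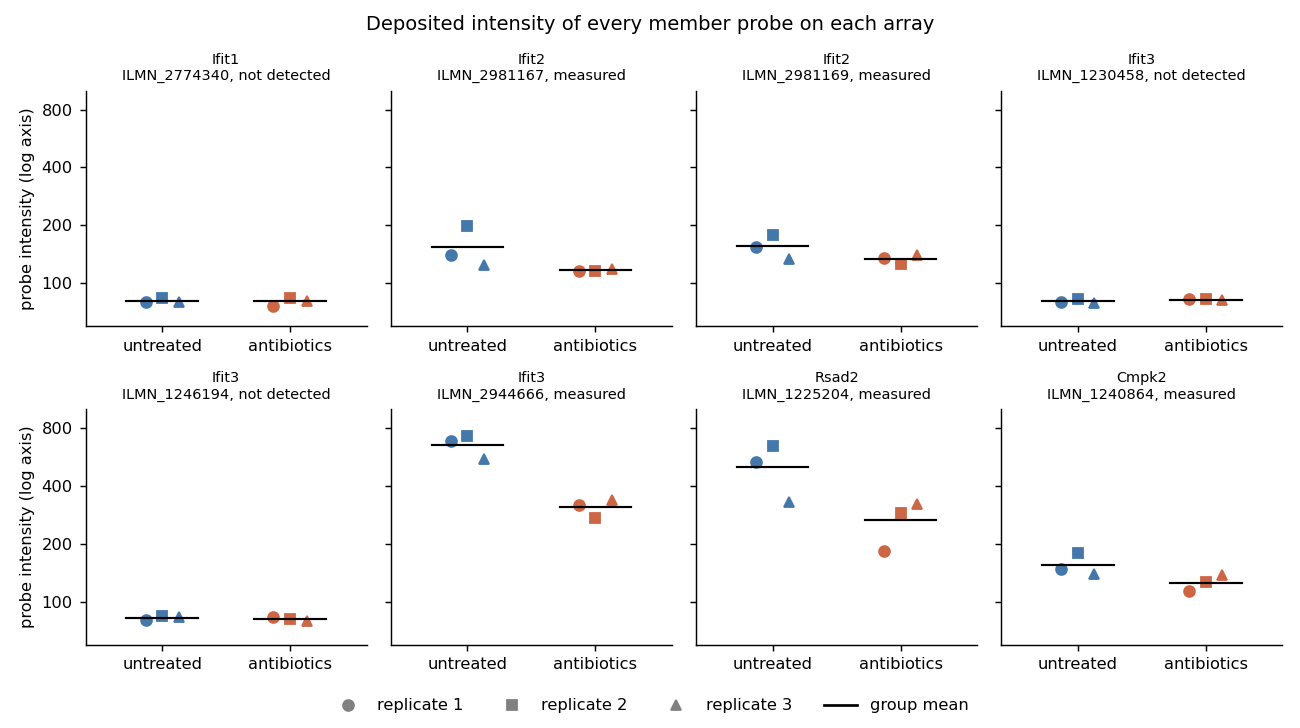
Deposited intensity (log axis, before background correction) of all 8 probes on each array, untreated in blue and antibiotics in orange, with a symbol for each replicate number and a bar at the group mean. The 5 measured probes show lower means after antibiotics, with overlap of the groups in 1 of them, and the 3 probes that were not detected lie between 76.2 and 84.3 in both groups.

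The measured members did not all order the arrays alike. Untreated replicate 3 was the lowest untreated array on 5 of 5 measured probes, as it was in 35.6% of all tested genes. Among the antibiotics arrays, replicate 1 was the lowest for Rsad2 and Cmpk2 in the deposited intensities, the quantile-normalized levels and with median scaling. For Ifit3 and the brighter Ifit2 probe it was the highest only after quantile normalization, and replicate 3 was the highest in the deposited intensities and with median scaling. In quantile-normalized log2 levels it lay 0.51 below its group's mean in Rsad2 and 0.27 above it in Ifit3. Antibiotics replicate 1 also stood apart over all genes, scoring -25.3 on principal component 1 against 1.36 to 11.5 for the rest, and its part in these values was not tested. Without it Rsad2 stood at -0.84, Cmpk2 at -0.47, Ifit3 at -1.34 and Ifit2 at -0.45.

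By limma with Benjamini-Hochberg adjustment over all 6331 tested genes and unnamed probes, 0 (0%) passed an adjusted p of 0.05, and so 0 of the 4 measured members did. The adjusted p was 0.214 for Ifit3, 0.367 for Rsad2, 0.402 for Cmpk2 and 0.635 for Ifit2, and 0.419 for the second Ifit2 probe in the same fit over all 7507 measured probes. At an unadjusted p under 0.05, 490 genes (7.74%) were counted, 274 (4.33%) lower and 216 (3.41%) higher, and 3 of the 4 members were among the lower ones. Median scaling in place of quantile normalization gave 325 lower and 73 higher. In the fit over probes 4.54% were lower at that limit, the second Ifit2 probe among them. The groups did not overlap, in the lower direction, for 3 of 4 members and in 6.62% of all tested genes, and in the higher direction for 0 members and 7.12% of genes. Counted by probe, this held for 4 of 5 member probes and for 7.05% of all measured probes. With median scaling it held for 5 of 5 member probes, and the share of all probes was not counted on that scale. A level at least 1.5-fold lower was found in 2.05% of the tested genes and in 3 of 4 members. One at least 2-fold lower was found in 13 (0.205%) of the tested genes, among them Ifit3 and Rsad2, which ranked 7 and 10 from the lowest fold change. Cmpk2 ranked 99 and Ifit2 422. Because earlier results on this contrast led to the choice of members, nothing is read from these counts.

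**Figure D3:**
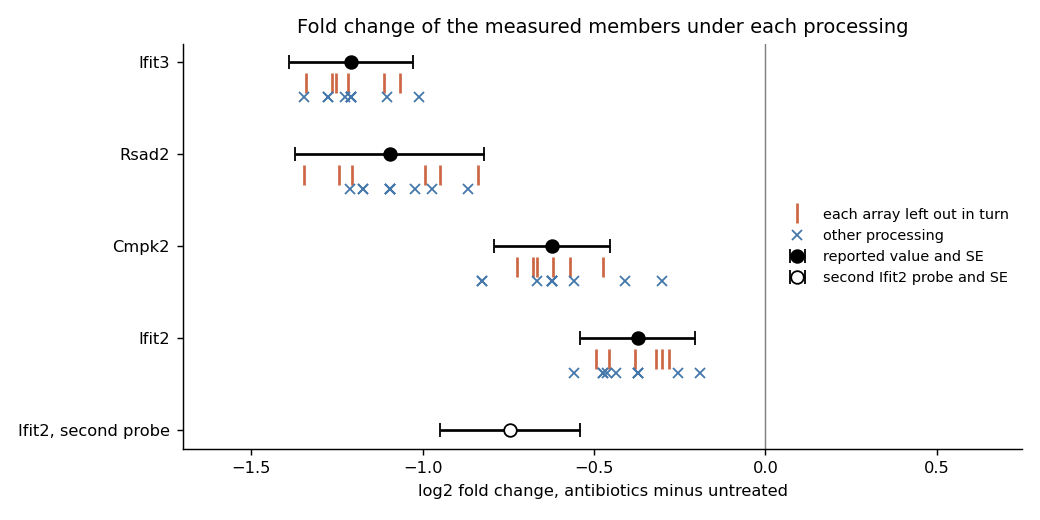
Log2 fold change, antibiotics minus untreated, of the 4 measured members and of the second Ifit2 probe, as circles with limma's SE (n = 3 arrays a group). For the 4 members only, vertical marks give the values after leaving out each array and crosses those under other processing. All values lie below 0. They run from -1.35 to -1.01 for Ifit3, from -1.35 to -0.84 for Rsad2, from -0.83 to -0.30 for Cmpk2 and from -0.56 to -0.19 for Ifit2. The second Ifit2 probe lies at -0.75.

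Some other measures also differed between the groups, and others overlapped. Between 6876 and 7370 probes were detected on the antibiotics arrays and between 7422 and 7674 on the untreated ones. Correlations between arrays over the tested genes lay between 0.963 and 0.984. Of 12 B cell markers listed, 5 were measured, and their summed normalized level ran from 385 to 471 after antibiotics and from 487 to 556 without, while Ms4a1, Cd79a, Pax5, Ebf1, Blk and Cr2 were detected on 0 arrays. The 5 went both ways, 4 of them lower. Fcmr lay at -1.06, Cd22 at -0.79 with overlap and Chst3 at -0.72 (-0.62 on a second probe). Cd79b, the brightest of the 5, lay at -0.057 with overlap, and Fcrla at 0.43 (0.32 and 0.29 on its other probes). Fcmr and Cd22 were each detected on 2 of 3 antibiotics arrays. Of 13 macrophage and monocyte markers 4 were measured, summing to 1642 to 1858 after antibiotics and 1069 to 1487 without, with Mertk, Fcgr1, Ccr2, Marco and Siglec1 detected on 0 arrays. Most of that sum was Lyz2, at a log2 fold change of 0.54 and 0.14 on its other probe, while Adgre1 lay at 0.33 (0.22 on a second probe). Cd163 at 0.23 and Cd14 at -0.080 lay with overlap. Plasmacytoid DC markers, 8 measured of 14, summed to 2378 to 2398 and 2333 to 2643, so that the groups overlapped there. Most of this sum was Irf8, at 0.16. Of the 8 there were 6 lower (median -0.28), with Irf7 at -0.54 and Atp1b1 at -0.57 lower without overlap. With overlap lay Bst2 at -0.36, Cox6a2 at -0.33, Tcf4 at -0.22, Spib at -0.11 and Pacsin1 at 0.17. Irf7 and Irf8 are also counted below among the interferon regulatory factors, and Bst2 among the antiviral effectors. Siglech, Ly6d and Klk1 were below the limit for a measured probe, and Ccr9 and Cd300c were detected on 0 arrays. The sums of the other marker lists overlapped between the groups as well. For T cell markers they ran from 220 to 386 after antibiotics and from 288 to 339 without. For natural killer cell markers they ran from 422 to 541 and from 465 to 541. For neutrophil markers they ran from 93.8 to 105 and from 86.7 to 102, and for DC core markers from 44914 to 47818 and from 45103 to 46908. The part of cell composition or detection in the members' values was not tested. In such bulk samples fewer cells of a type and less RNA per cell cannot be told apart.

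Upstream of the members, the interferon ligands were at or near background. Of 20 ligand genes listed, 18 had a probe, 15 were detected on 0 arrays, Ifnb1 among them, and 2 were measured. These were Ifna6 at a log2 fold change of 0.14 (SE 0.13) and Ifna1 at 0.087 (SE 0.18), with overlapping groups. The probes of close relatives in this family can share signal. The receptors and the JAK-STAT proteins that carry the signal had 11 measured genes, 7 lower and 4 higher, at a median log2 fold change of -0.096 where the median over all tested genes was 0.017. Stat2 lay at -0.28 (SE 0.16) and the receptor chain gene Il10rb at -0.34 (SE 0.21), while Ifngr1, a chain of the interferon gamma receptor, lay at 0.59 (SE 0.27) and Ifnlr1, of the interferon lambda receptor, at 0.48 (SE 0.24), with 0.10 and 0.17 on its other probes. The groups overlapped in each of these 4. Ifnar1 and Jak1 were detected on 0 arrays. Without antibiotics replicate 2 the median was 0.042.

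Regulators of the response lay on both sides. Irf7, a factor that drives interferon genes in a positive loop, was the only one of 7 measured interferon regulatory factors with non-overlapping lower values, at -0.54 (SE 0.15). Its normalized levels were 5.47, 5.73 and 5.80 on antibiotics replicates 1, 2 and 3 and 6.33, 6.23 and 6.07 on untreated ones. Irf2 at 0.27 (SE 0.14) and Irf5 at 0.17 (SE 0.13) showed non-overlapping higher values, as did Irf8 at 0.16, and Irf4 stood at 0.25 (SE 0.16). The median of the 7 was 0.16, against 0.0077 with median scaling and 0.090 without untreated replicate 1. Of 5 measured negative regulators 4 were lower (median -0.33), among them Socs3 at -0.50 (SE 0.20) and Usp18, the ISG15 protease that also restrains the interferon receptor, at -0.35 (SE 0.16) and -0.55 on a second probe. Pias3 and Pias1 lay at -0.33 (-0.45 on a second probe) and -0.12. This median was -0.16 without antibiotics replicate 2 and -0.012 without the filter on dim probes. Nucleic acid sensors and their adaptors were split, 4 lower and 4 higher (median -0.14). Dhx58, a cytosolic RNA receptor, at -0.28 and Zbp1, a Z-form nucleic acid sensor, at -0.30 were lower without overlap, and Traf6 (-0.17 and -0.41 on other probes) and Tbk1 each lay at -0.30 with overlap. That median was -0.28 without antibiotics replicate 3 or untreated replicate 3 and -0.065 without antibiotics replicate 1. None of these passed, with limma adjusted p from 0.449 to 0.876 for those named.

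Other antiviral effectors stood nearest to the members in role. Of 46 genes listed from the OAS, Mx and related families, 40 had a probe and 18 were measured, and of the 18 there were 15 lower and 3 higher, at a median of -0.24. Over all tested genes 46.4% were lower. In 5 of the 18 the groups did not overlap in the lower direction (6.62% of all tested genes), and in 0 in the higher (7.12%). Oasl2, an oligoadenylate synthetase-like gene, lay at -1.05 (SE 0.27), with normalized levels of 7.21, 7.57 and 7.31 on antibiotics replicates 1, 2 and 3 and 8.92, 8.50 and 7.81 on untreated ones. Untreated replicate 3 was thus again the lowest of its group and nearest to the antibiotics arrays. Ifi27l2a lay at -0.91 (SE 0.18), Oas1g, which makes the messenger that activates RNase L, at -0.79 (SE 0.17), and Eif2ak2, the RNA-activated kinase that stops translation, at -0.47 (SE 0.16). Their limma adjusted p ran from 0.339 to 0.565, so that 0 passed. Without single arrays 14 or 15 of the 18 were lower. The median was -0.40 without untreated replicate 3 and -0.18 without untreated replicate 1. Without the filter on dim probes it was -0.070 over 40 genes. Genes of this list detected on 0 arrays included Mx1, Oas1a, Oas3, Ifi35, Rtp4 and Xaf1. Isg15 and Oas2 were below the limit for a measured probe.

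Interferon gamma-induced genes showed 10 of 12 lower at a median of -0.13, and one large value the other way. Gbp3, a guanylate-binding protein gene, lay at -0.90 (SE 0.15, -0.16 on a second probe), Cd274 (PD-L1) at -0.63 (SE 0.21) and Gbp2 at -0.43 (SE 0.16), while the chemokine gene Cxcl9 lay at 0.87 (SE 0.20). The groups did not overlap in any of these 4, which were named for the smallest p of the 12, and 0 passed (limma adjusted p from 0.214 to 0.575). Of the 12, the groups did not overlap in the lower direction in 4 (6.62% of all tested genes). In the higher direction this held for 1 (7.12%). Leaving out antibiotics replicate 1 gave a median of -0.067, and leaving out antibiotics replicate 2 gave -0.20. Cxcl10, which is induced by both kinds of interferon, was detected on 0 arrays.

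Genes linked to the members by biochemistry or by place showed no common direction. Of 13 measured genes of nucleotide kinases and pools 6 were lower and 7 higher (median 0.023). Uck1, a uridine-cytidine kinase, lay at -0.55 (SE 0.20) and Rrm2, a ribonucleotide reductase subunit, at -0.47 (SE 0.17, -0.42 on a second probe), both without overlap, and Dguok at 0.22 and Nme2 at 0.20 (0.066 on a second probe) with overlap. Rrm2 was detected on 2 of 3 antibiotics arrays. Of 9 measured genes of protein partners of viperin and Ifit proteins 4 were lower and 5 higher (median 0.056, and -0.040 without antibiotics replicate 1). The iron-sulfur assembly genes Ciao1 and Ciao2b lay at -0.26 and -0.27 (-0.13 on a second Ciao2b probe), Cmtr1, the cap methyltransferase, at -0.19 and Hadhb at 0.17, each with overlap. The listed genes around the clusters, of which 4 were measured, lay at 0.41 (Id2, and 0.090 on its other probe), 0.091 (Acta2), 0.065 (Pank1) and -0.043 (Fas), and the groups overlapped in all 4. Ch25h and Lipa beside Ifit2, Slc16a12 beside Ifit1 and Rnf144a beside Rsad2 were detected on 0 arrays. Ifit3b, Ifit1bl1 and Ifit1bl2, which lie between Ifit3 and Ifit1, had no probe under their names.

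**Figure D4:**
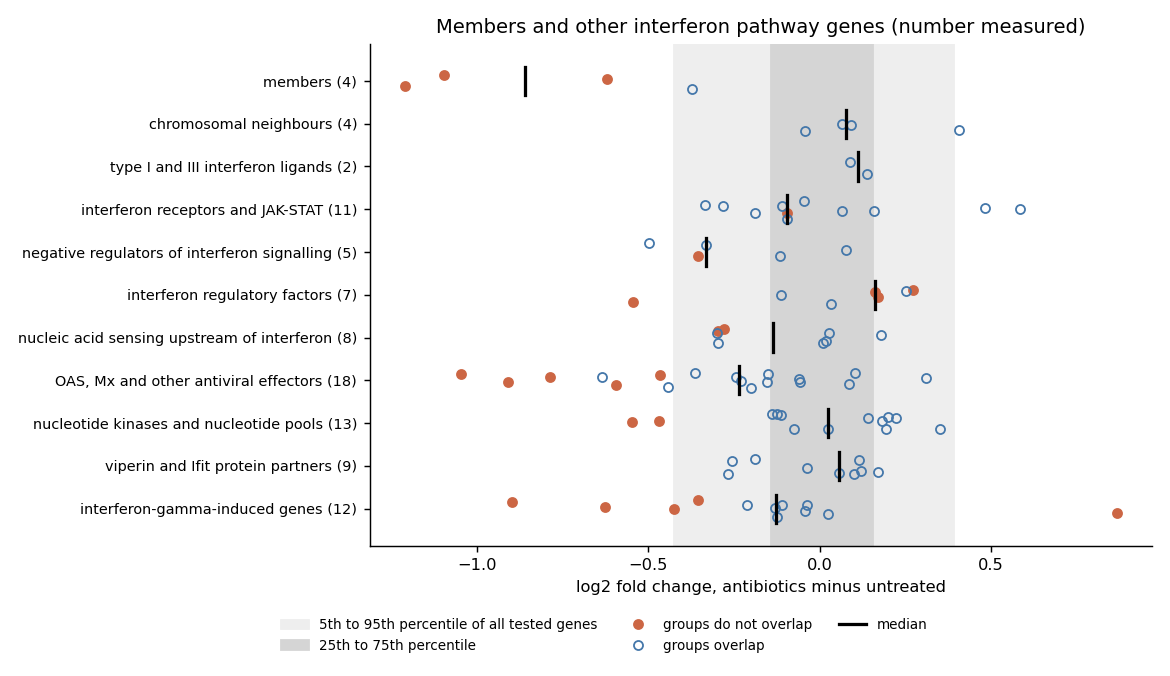
Log2 fold change, antibiotics minus untreated, of each measured gene of the members and of 10 lists of related genes, with the number measured in brackets, a bar at the list's median, and filled points where the 3 arrays of one group all lie on one side of the other 3. Grey bands give the middle of all 6331 tested genes. The members have a median of -0.86 and the OAS, Mx and other effectors -0.24.

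Among 5897 other named tested genes, the 8 whose levels over the 6 arrays were most like the mean of the measured members had a Pearson r between 0.971 and 0.990. They were St3gal2, Usp47, Cd1d1, Fabp5, Kcnn1, Tlr1, Irf7 and Fut4. They were picked for this likeness, and r over 6 arrays in 2 groups follows the difference between the groups, so it carries no p. In each of the 8 the groups did not overlap. Only Irf7 among them stands in a list of interferon pathway genes used here. Cd1d1, which presents lipids to natural killer T cells, lay at -1.32 (SE 0.23), Fabp5, a fatty acid carrier, at -1.24 (SE 0.17), Usp47, a ubiquitin protease, at -0.66 (SE 0.14), Fut4, a fucosyltransferase, at -0.66 (SE 0.15) and Tlr1, a receptor for bacterial lipoproteins, at -0.58 (SE 0.16). St3gal2 and Kcnn1 were detected on 3 untreated and 0 antibiotics arrays. Their untreated means were at least 1.51-fold and 1.31-fold higher, set against the higher, on each antibiotics array, of the lowest detected signal and the probe's own value. When each group's mean was taken out first, the most similar 8 were Armc7, Marchf6, Polr3b, Vac14, Ncapd3, Mrgpre, Camta2 and Mark3, with r between 0.986 and 0.994. None of these 8 was among the first 8 or in a list of pathway genes, and 3 of the fold changes were above 0. Some were near background: Marchf6 was detected on 3 untreated and 0 antibiotics arrays. Armc7 and Mrgpre were each detected on 2 untreated arrays and 1 antibiotics array.

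**Figure D5:**
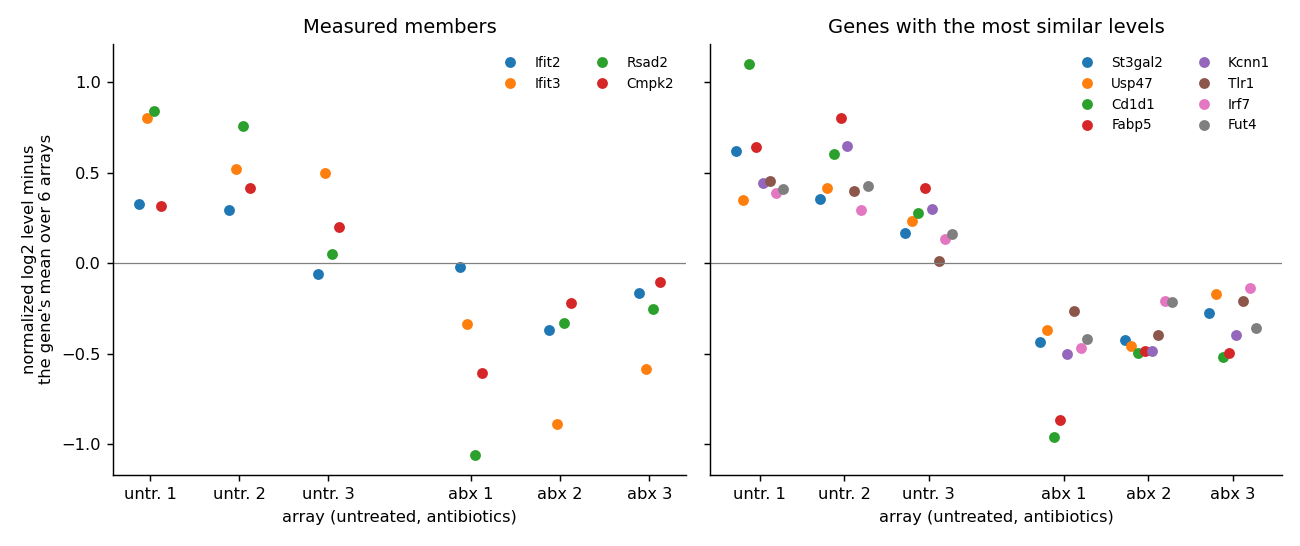
Normalized log2 level (quantile-normalized) on each array minus the gene's own mean over the 6 arrays, for the 4 measured members (left) and the 8 genes most like their mean (right), with untreated arrays before antibiotics (abx) arrays. Rsad2 and Cmpk2 lie lowest on antibiotics replicate 1, while Ifit3 and Ifit2 lie highest there within their group on this scale, but not with median scaling.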

How the data were processed

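Per the file headers, the authors deposited probe intensity and a detection p-value per probe for each of 6 arrays, as a table that its values show to be neither background-corrected nor normalized. The authors also deposited a normalized intensity table with values below 0, whose making the labels do not describe, and the series' value table repeats it in all 154182 cells. Groups and replicate numbers come from the titles. Nothing says that arrays are separate mice, so p-values measure the spread between arrays, which may be technical, and 3 arrays a group limit the precision.

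The intensity was processed with neqc in limma 3.58.1 (R 4.3.3): normexp background correction from detection p, offset 16, quantile normalization, log2. The offset understates fold changes of dim probes, and a shift of all genes would not be seen. Of 25697 probes 7507 (29.2%) were measured. The annotation gave 23978 probes 1 symbol, 0 several and 1719 none. The brightest measured probe stood for a gene, which left 6331 rows (5901 named genes, 430 unnamed probes), tested by lmFit and eBayes. The fit was tested on simulated data. Promoter letters are from RefSeq.

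Members and lists were chosen with earlier results of these data known. The text names the members, up to 4 genes a pathway list by smallest p, and 8 genes by each measure of likeness. Genes named as not detected, as below the limit for a measured probe or as without a probe fall outside this rule. So do the cell type markers, Irf8, and the genes outside the members named for their ISRE core matches. Those named were chosen after their values were seen. Same-numbered arrays did not deviate together (correlations of -0.046, -0.060 and -0.15).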

Additional observations from a re-analysis of the deposited data

How the results depend on the processing

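By limma, each of 16 alternatives gave 0 genes past the adjusted threshold of 0.05, with the smallest adjusted p between 0.094 (array weights) and 0.677. At an unadjusted p under 0.05 the count was 490 as reported, between 341 and 549 without single arrays, and 1094 when dim probes were kept, where more genes are tested. The 4 measured members kept a negative fold change in all 16. Their median was -0.86 as reported, -0.58 with no background correction, and between -0.97 and -0.66 without single arrays. With the replicate number as a block the folds stayed as reported and the adjusted p was 0.590 for Ifit3, 0.667 for Rsad2 and Cmpk2 and 0.784 for Ifit2. The numbers do not pair the arrays.

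Medians near 0 changed sign. Median scaling also moved the median of all tested genes, from 0.017 to -0.071. That of nucleotide kinases was -0.10 with median scaling and between -0.045 and 0.10 without single arrays. That of viperin and Ifit partners was -0.062 with median scaling, -0.070 with array weights, -0.013 with dim probes kept and between -0.040 and 0.13 without single arrays. That of receptors and JAK-STAT ran from -0.14 to 0.042 without single arrays. The cause was not tested. Signal near background limits Cmpk2 and Ifit2, whose size follows the background correction.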

Other observations

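Genes outside the members whose promoter window holds the ISRE core were counted after the data were seen. Of 4862 tested genes with a window, 182 held 1 match and 14 held 2 or more. Among the 182, 81 (44.5%) were lower after antibiotics at a median log2 fold change of 0.027, and among the 14, 7 were lower at a median of -0.020, where 46.3% of all 4862 were lower at a median of 0.016. Under median scaling, where 61.7% of all 4862 were lower at a median of -0.072, 11 of the 14 were lower at a median of -0.16. Without single arrays 6 to 9 of the 14 were lower, at medians from -0.094 to 0.013. The 14 include Gbp3 at -0.90, Oas1g at -0.79, Ifitm3, an inhibitor of virus entry, at -0.44, Bst2 (tetherin) at -0.36 and Trim21, an antibody receptor of the cytosol, at -0.30. On the other side stood Tlr6 at 0.45, Rpp14 at 0.33 and Vps41 at 0.28. Irgm1, an interferon-inducible GTPase gene, lay at 0.023, and Cmpk1, the cytosolic relative of Cmpk2, also at 0.023. None of the 14 passed (limma adjusted p from 0.214 to 0.984).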
